A study of Mus musculus and Homo sapiens with 180 samples.

Results

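MV4;11 is a human acute myeloid leukaemia line that carries an MLL fusion. A clone of MV4;11 in which PCGF1 had been knocked out (PCGF1 KO) was compared with MV4;11 cells that carry a control guide, both in DMSO, the solvent of the inhibitors used elsewhere in the study. The comparison rests on 6 of the 180 samples of the series, 3 libraries of the clone (PCGF1 KO DMSO, replicates 1 to 3) and 3 of the control cells (Control - DMSO, replicates 1 to 3), chosen by the names of the columns and both labelled 72 h. Gene expression was measured by 3′ RNA-seq, in which reads come from the polyadenylated end of a transcript, so that counts do not scale with gene length. Values are given as CPM, the standard library-scaled read count, after TMM scaling, which sets the typical gene to the same level in every library. Differences are log2 fold changes of PCGF1 KO over control from edgeR's quasi-likelihood test, and a gene was called at a Benjamini-Hochberg adjusted p under 0.05.

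The knocked-out cells are 1 clone, expanded from cells that express Cas9 and a lentiviral guide, and the control guide targets a genomic location regarded as safe to cut. Effects of losing PCGF1 and differences that the founding cell of the clone already had cannot be told apart in these 6 libraries. The study calls the libraries of a group biological replicates, and the labels add nothing on how they were kept apart. For the knockout they are replicates of the same clone, so p-values measure the spread within that clone and within the control line, not between clones. That spread was estimated over the DMSO and drug libraries together, not from the 6 DMSO libraries alone. For comparison, the same clone and the same control cells were also sequenced after 5 μM of the DOT1L inhibitor SGC0946 for 72 h and after 500 nM of the Menin inhibitor VTP50469 for 48 h, in 6 libraries each. MOLM13, another human leukaemia line with an MLL fusion, gave 6 further libraries, PCGF1 KO and control in DMSO, labelled 72 h.

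Polycomb repressive complex 1 (PRC1) places ubiquitin on lysine 119 of histone H2A and helps to keep developmental genes silent. PCGF1 is the subunit that defines the PRC1.1 form, in which it joins BCOR or BCORL1, KDM2B, which binds unmethylated CpG-rich DNA, RYBP or YAF2, SKP1, USP7 and the ubiquitin ligases RING1 and RNF2. In leukaemia with an MLL fusion, Menin and DOT1L sustain genes such as MEIS1 and the HOXA genes. The study asked how PRC1.1 takes part in silencing such genes, and the DMSO libraries give the level of each gene before any drug.

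The clone's name carries the guide number G1 and the MOLM13 PCGF1 KO columns carry G2. The oligonucleotide list of the study holds 2 human PCGF1 guides, numbered 1 and 2, and the labels do not state that these numbers are those in the names. Both are shown because they fix where the gene would have been cut, as spacers in lower case with the adjoining genomic PAM in capitals, with coordinates of GRCh38 from a match to that genome.
Guide 1: ggggcagtacttgctagttTGG
Guide 2: gaggtacgccatctccggAGG
Guide 1 (19 bases) matched chr2:74506835-74506853 on the plus strand, within coding exon 3 of the 9 exons of PCGF1's canonical transcript, which is read from the minus strand. Guide 2 (18 bases) matched chr2:74505591-74505608 on the minus strand, in coding exon 7. Counts from the 3′ end do not show whether an edited transcript still encodes the protein.

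PCGF1 itself was measured at 1.87, 1.64 and 5.14 CPM in the PCGF1 KO libraries and 4.89, 3.67 and 7.33 CPM in control libraries. The groups overlapped, and the log2 fold change of -0.93 ± 0.40 (SE) did not pass the test (adjusted p = 0.112). In 1 of the 13 alternative fits, the one without PCGF1 KO replicate 3, PCGF1 was called lower. Of the 10 PRC1.1 subunit genes, each of which could be tested, 1 was called higher and 0 lower by edgeR (5 at an unadjusted p under 0.05 were higher and 1 lower), against 16.3% of all 11252 genes tested called in either direction. The called gene was RYBP, at 85.7, 105 and 81.3 CPM in the PCGF1 KO libraries and 70.1, 69.6 and 75.3 CPM in control libraries, with no overlap and a log2 fold change of 0.34 ± 0.10 (SE, adjusted p = 0.0212); this call was lost without PCGF1 KO replicate 2, without control replicate 1 or 2, and with only these 6 libraries in the model. BCOR had a log2 fold change of 0.36 ± 0.14 (SE, adjusted p = 0.0663) and KDM2B 0.27 ± 0.11 (SE, adjusted p = 0.112), neither called although their groups did not overlap. Over all genes tested, 25.9% had groups that did not overlap. RNF2, which encodes the ligase RING1B, had 0.66 ± 0.26 (SE, adjusted p = 0.0767) and BCORL1 1.004 ± 0.38 (SE, adjusted p = 0.0682). RING1, YAF2, SKP1 and USP7 lay between -0.12 and 0.18. The rises in this list numbered 3 without PCGF1 KO replicate 1, 4 without PCGF1 KO replicate 3 and 0 without PCGF1 KO replicate 2 or control replicate 1.

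The 3 PCGF1 KO libraries held 3043816 to 4585169 counts on genes and the 3 control libraries 4465551 to 4792045. In these libraries, 3 counts in a library equal 0.547 to 0.735 CPM, which limits what can be said of genes near that level. The PCGF1 KO libraries differed more from each other than the control libraries did, with a chi-square per degree of freedom of 19.7 to 67.9 for pairs against 2.49 to 5.90. An identifier with no symbol in the annotation used, ENSG00000266658, took 21.9%, 14.1% and 3.38% of the counts of PCGF1 KO replicates 1 to 3 and 22.9% to 26.8% in control. PCGF1 KO replicate 3 had the fewest counts, and its share of reads on no gene was 28.4% against 21.4% to 24.7% in the other 5 libraries. The part of these differences in the results was not tested beyond leaving each library out in turn and leaving this identifier and the next most abundant out of the counts.

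Of 11252 genes tested, 1831 (16.3%) were called, 1047 (9.31%) higher and 784 (6.97%) lower in the PCGF1 KO clone. Called genes that differed by more than 1 on the log2 scale numbered 471 higher and 200 lower, while the median over all genes tested was 0.00. Leaving out a library gave 1188 to 2824 calls. The highest number came without PCGF1 KO replicate 1 and the lowest without control replicate 2. With only these 6 libraries in the model 885 genes were called, all of them among the 1831. The 12 largest rises and 12 largest falls described next kept their call in each of the 13 alternative fits, which also include other scalings and DESeq2. Scaling by library size alone moves the median of all genes by 0.32 on the log2 scale and gave 2618 higher and 230 lower, so changes are given relative to the typical gene.

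**Figure D1:**
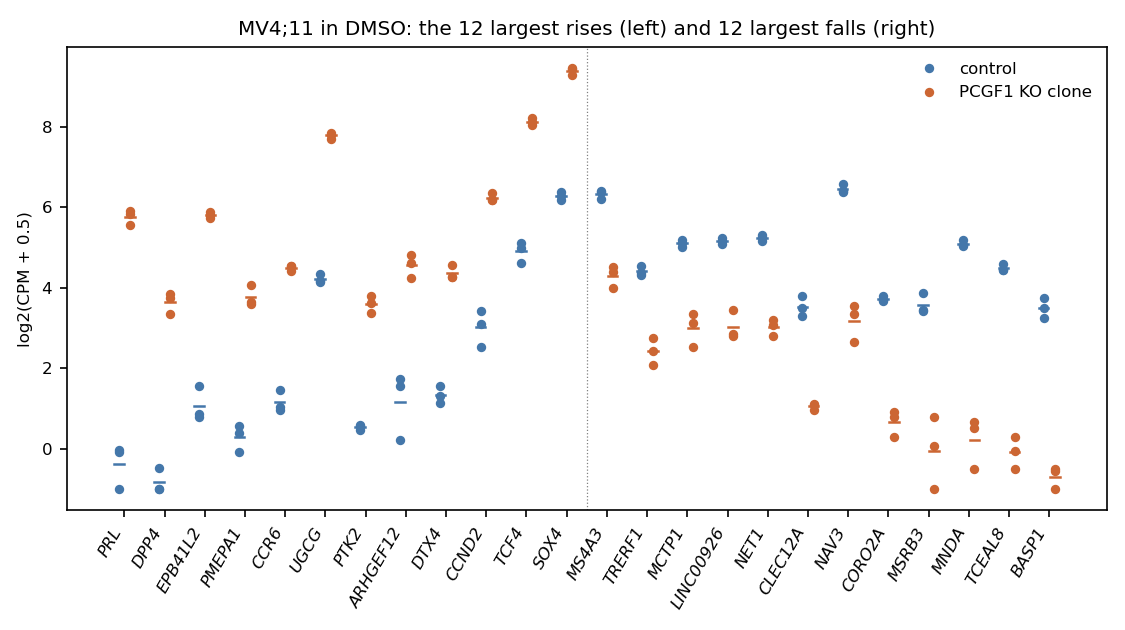
Expression in each of the 6 MV4;11 DMSO libraries, as log2(CPM + 0.5), of the 12 genes with the largest called rise and the 12 with the largest called fall among named genes at a mean of at least 10 CPM in the higher group whose groups did not overlap. Points are libraries and bars are group means; each PCGF1 KO point (orange) lies above every control point (blue) in the left part and below them in the right part.

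The most abundant of the 12 largest rises were 3 genes of transcription and lipid metabolism. SOX4, a transcription factor of progenitor cells, was measured at 703, 619 and 689.7 CPM in the PCGF1 KO libraries and 71.7, 82.3 and 77.8 CPM in control libraries, an 8.69-fold rise (log2 fold change 3.12 ± 0.09 SE, adjusted p = 2.34e-22). TCF4, an E protein that directs plasmacytoid dendritic cell fate, stood at 278, 262 and 296 CPM in the PCGF1 KO libraries and 31.4, 24.2 and 34.2 CPM in control libraries, with a log2 fold change of 3.21 ± 0.11 (SE, adjusted p = 2.47e-20). UGCG makes glucosylceramide, the first step of glycosphingolipid synthesis, and was found at 222, 231 and 208 CPM in the PCGF1 KO libraries and 19.96, 17.4 and 17.3 CPM in control libraries (log2 fold change 3.59 ± 0.12 SE, adjusted p = 1.50e-20). In each of these genes the lowest PCGF1 KO library was far above the highest control library.

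Other rises began from low levels. PRL, which encodes the hormone prolactin, was measured at 46.8, 56.5 and 59.8 CPM in the PCGF1 KO libraries and 0, 0.490 and 0.445 CPM in control libraries, and its log2 fold change was 7.39 ± 0.31 (SE, adjusted p = 4.01e-18). EPB41L2, a protein that links the membrane to the cytoskeleton, stood at 55.3, 52.5 and 58.2 CPM in the PCGF1 KO libraries and 2.44, 1.22 and 1.33 CPM in control libraries (log2 fold change 4.9998 ± 0.23 SE, adjusted p = 2.74e-17). CCND2, the cyclin D2 that starts the passage through G1, rose 9.54-fold, from 8.15, 10.3 and 5.33 CPM in control libraries to 72.4, 81.3 and 71.99 CPM in PCGF1 KO libraries. The others were the chemokine receptor CCR6 (3.62 ± 0.32 SE), the focal adhesion kinase PTK2 (3.57 ± 0.32 SE), the guanine nucleotide exchange factor ARHGEF12 (3.54 ± 0.28 SE), PMEPA1, an inhibitor of TGF-beta signalling (4.13 ± 0.34 SE), the Notch regulator DTX4 (3.28 ± 0.21 SE) and the peptidase DPP4. In none of the 12 did the groups overlap, a condition of their choice.

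The largest falls included genes of myeloid cells. MNDA, a nuclear antigen of myeloid cells that responds to interferon, was measured at 0.208, 1.09 and 0.935 CPM in the PCGF1 KO libraries and 33.2, 32.3 and 35.8 CPM in control libraries (log2 fold change -5.44 ± 0.30 SE, adjusted p = 7.06e-15). CLEC12A, an inhibitory lectin receptor of myeloid cells, fell by 2.80 on the log2 scale, with 1.66, 1.46 and 1.64 CPM in the PCGF1 KO libraries and 9.37, 10.8 and 13.3 CPM in control libraries. MS4A3, a marker of granulocyte and monocyte progenitors, stood at 15.6, 20.4 and 22.4 CPM in the PCGF1 KO libraries and 82.7, 73.7 and 84.5 CPM in control libraries, a log2 fold change of -2.05 ± 0.13 (SE, adjusted p = 8.65e-14). In each of these genes the highest PCGF1 KO library lay far below the lowest control library.

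NAV3, which regulates microtubules, was the fall from the highest level, with 9.78, 11.1 and 5.84 CPM in the PCGF1 KO libraries and 84.9, 95.3 and 83.3 CPM in control libraries and a log2 fold change of -3.27 ± 0.15 (SE, adjusted p = 8.04e-17). TCEAL8, an X-linked gene related to elongation factors, stood at 0.208, 0.729 and 0.467 CPM in the PCGF1 KO libraries and 21.2, 23.8 and 21.3 CPM in control libraries (log2 fold change -5.44 ± 0.29 SE). The methionine sulphoxide reductase MSRB3 (-4.18 ± 0.51 SE), the actin-binding CORO2A (-3.49 ± 0.34 SE), the guanine nucleotide exchange factor NET1 (-2.26 ± 0.16 SE), the membrane protein MCTP1 (-2.14 ± 0.17 SE), the non-coding LINC00926 (-2.15 ± 0.18 SE) and the transcriptional regulator TRERF1 (-2.07 ± 0.24 SE) were also among the 12. BASP1, a membrane-bound signalling protein, was counted 2 times in the PCGF1 KO libraries together against 146 times in control, a ratio of 78.8-fold, with a 95% counting interval of 21.4 to 657. BASP1 lies in a stretch of chromosome 5 described further on, in which most genes were lower.

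Genes with at most 3 counts in the 3 control libraries together and called higher numbered 49. Of those with a symbol, DPP4 had the highest level in PCGF1 KO, 13.9, 9.66 and 12.9 CPM, with 1 count in control and a ratio of 162-fold, with a 95% counting interval of 28.7 to 6436. The transporter ABCA6 (5.41, 4.01 and 5.61 CPM), the ciliary receptor GPR161 (3.74, 4.38 and 3.27 CPM) and the kinases SBK1 (3.74, 2.37 and 5.14 CPM) and LMTK3 (3.12, 1.64 and 6.08 CPM) followed, with 1 to 3 counts in control. PALD1, a protein of blood vessels, reached 2.91, 3.65 and 2.80 CPM. A transcript with no symbol in the annotation used, ENSG00000239186, had no count in control and 23.3, 19.1 and 33.2 CPM in PCGF1 KO, at least 37.6-fold higher against 3 counts per control library. MAGEA4, a cancer-testis antigen, was also without a count in control, at 2.704, 1.46 and 2.34 CPM in PCGF1 KO and at least 3.23-fold higher.

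The reverse, at most 3 counts in PCGF1 KO and called lower, held for 15 genes. Besides BASP1, VIT, an extracellular matrix protein, went from 4.89, 6.12 and 4.89 CPM in control to 2 counts in PCGF1 KO, a ratio of 38.3-fold, with a 95% counting interval of 10.2 to 323. PTPRZ1, a receptor phosphatase of neural cells, had no count in PCGF1 KO and 2.44, 1.71 and 1.33 CPM in control, at least 2.93-fold lower. CDA, which deaminates cytidine and the drug cytarabine, stood at 2.24, 1.96 and 1.56 CPM in control and 2 counts in PCGF1 KO, a ratio of 14.04-fold, with a 95% counting interval of 3.52 to 122. The scavenger receptor MARCO of macrophages had 0.815, 3.18 and 2.0003 CPM in control and also 2 counts in PCGF1 KO. These intervals cover counting error alone.

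Chromosome 5 held a continuous stretch of lower genes in the PCGF1 KO clone. Among genes at a mean of at least 10 CPM, 23.5% of those on chromosome 5 were called lower, against 9.8% over the genome. The split of the gene order of chromosome 5 with the smallest summed deviation from the medians of its sides fell between MRPS30 and EMB, which are neighbours in that order. Before it, from chr5:195778 to 44820428 (GRCh38), 51 of 60 genes were called lower and 2 higher, with a median log2 fold change of -0.99 (quartiles -1.21 and -0.79). Beyond it, where the next such gene began at chr5:50396192, 20 of 242 genes were called lower and the median was -0.04, close to the -0.03 of the other chromosomes. A value of -1 on this scale is a level of 50% of the control.

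Each PCGF1 KO library showed the stretch. The median over its genes of the log2 ratio to the control mean was -0.997, -0.97 and -1.004 in PCGF1 KO replicates 1 to 3 and 0.01, -0.01 and 0.00 in the control libraries. It was also present in the libraries under drug, with a median log2 fold change of -0.93 in SGC0946 (54 of 60 genes called lower) and -0.91 in VTP50469 (53 of 60). In MOLM13 the median of 59 of these genes was 0.11. In windows of 20 neighbouring genes, 48 of 5786 had a median under -0.5, each of them on chromosome 5. The lowest median of a window on another chromosome was -0.30, and the highest of any window was 0.42, on chromosome 10. DNA copy number was not measured, and a difference of the clone's genome and an effect of PCGF1 on these genes cannot be told apart here.

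**Figure D2:**
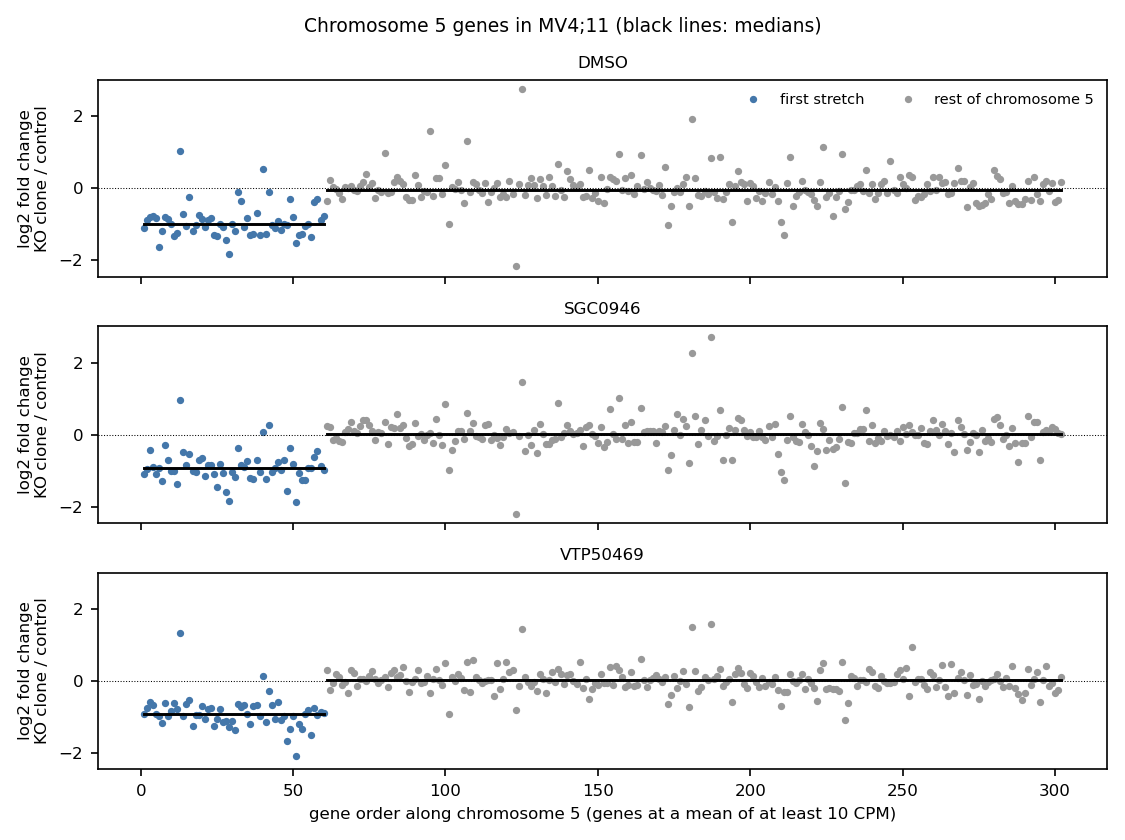
Log2 fold change of PCGF1 KO over control for genes of chromosome 5 at a mean of at least 10 CPM, in gene order, for the DMSO, SGC0946 and VTP50469 libraries of MV4;11. Blue points are the 60 genes of the stretch before MRPS30's neighbour EMB, grey points the 242 genes beyond it, values beyond 4 in size are drawn at that limit, and black lines the medians, -0.99 and -0.04 in DMSO.

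Of all genes tested, 98 lie in the stretch, and they account for 59 of the 784 called lower and 3 of the 1047 called higher. Among the genes named here, BASP1, MRPS30-DT and HMGCS1 lie in it and were lower, and IL7R lies in it and was higher. BASP1 fell far beyond the median of its neighbours. MRPS30-DT, a non-coding transcript beside MRPS30, went from 1.22, 1.22 and 2.89 CPM in control to 2 counts in PCGF1 KO. IL7R, the interleukin 7 receptor, was measured at 39.7, 45.03 and 42.3 CPM in the PCGF1 KO libraries and 29.7, 28.4 and 29.8 CPM in control libraries (log2 fold change 0.53 ± 0.12 SE, adjusted p = 0.00201).

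Several genes that MLL fusion proteins are known to drive were higher in the PCGF1 KO clone before any drug. Of 29 such targets tested, 10 were called higher and 1 lower (median log2 fold change 0.14), against 9.31% and 6.97% of all genes. CDKN2C, an inhibitor of CDK4 and CDK6, was measured at 116, 102 and 111 CPM in the PCGF1 KO libraries and 28.1, 31.6 and 26.2 CPM in control libraries, a log2 fold change of 1.94 ± 0.13 (SE, adjusted p = 4.63e-13). The transcription factor RUNX2 had 1.26 ± 0.19 (SE, adjusted p = 8.53e-06), and BCL2, which holds back apoptosis, had 0.65 ± 0.11 (SE, adjusted p = 4.58e-05). Smaller rises were called in the receptor FLT3 (0.36 ± 0.10 SE), the kinase CDK6 (0.29 ± 0.09 SE) and LAMP5 (0.45 ± 0.10 SE), besides TCF4, MEIS1, HOXA9 and HOXA10. EMB, an adhesion protein, was the gene called lower (-0.34 ± 0.11 SE, adjusted p = 0.0337). Its gene is the first beyond the chromosome 5 stretch among those at 10 CPM or more. Leaving out a library gave 7 to 12 calls of a rise in this list. The fall of EMB was not called without PCGF1 KO replicate 2, without control replicate 1, 2 or 3, or with the 6 libraries alone. In SGC0946 the log2 fold change of EMB was 0.23 and in VTP50469 it was 0.32.

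MEIS1, the homeobox partner of HOXA9, was measured at 33.3, 32.1 and 34.4 CPM in the PCGF1 KO libraries and 22.6, 25.2 and 24.004 CPM in control libraries. The groups did not overlap, and the log2 fold change was 0.47 ± 0.15 (SE, adjusted p = 0.0308), a call that was lost without PCGF1 KO replicate 3, without control replicate 1, 2 or 3, without the filter on low counts and with only these 6 libraries in the model. HOXA10 stood at 90.5, 72.4 and 71.1 CPM in the PCGF1 KO libraries and 46.4, 53.4 and 56.01 CPM in control libraries (log2 fold change 0.59 ± 0.13 SE, adjusted p = 0.00219). HOXA9 (0.58 ± 0.16 SE, adjusted p = 0.0116) and HOXA11 (0.45 ± 0.14 SE, adjusted p = 0.0199) were also called, and HOXA13, near the limit of detection at 2.08, 0.912 and 0.935 CPM in the PCGF1 KO libraries and 1.83, 1.47 and 1.11 CPM in control libraries, was not (-0.18 ± 0.53 SE). These were the 4 of 11 HOXA genes that passed the filter. HOXA9 lost its call without PCGF1 KO replicate 2 or control replicate 2, HOXA11 lost it without control replicate 2, and both lost it with the 6 libraries alone. MEF2C, a myeloid transcription factor, had 0.14 ± 0.12 (SE, adjusted p = 0.484) and SOCS2, an inhibitor of cytokine signalling, 0.17 ± 0.23 (SE, adjusted p = 0.688), neither of them called.

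Of the 28 genes of the other HOX clusters, 7 passed the filter and 5 were called higher (median 1.11, against 9.31% called higher over all genes). They were HOXC10, measured at 4.58, 3.10 and 3.74 CPM in the PCGF1 KO libraries and 2.04, 1.22 and 0.889 CPM in control libraries, HOXC9 (1.196 ± 0.31 SE), HOXC4 (1.11 ± 0.36 SE), HOXC6 (0.76 ± 0.20 SE) and HOXB4 (0.76 ± 0.24 SE). Because a gene can pass the filter through its higher group, these shares describe the members that were expressed. The number called ranged from 2 to 5 when a library was left out, the lowest without control replicate 2. Among 210 developmental transcription factors, 177 were too low to test, and of the 33 tested 11 were higher and 1 lower (9.31% and 6.97% over all genes). The rises numbered 6 without PCGF1 KO replicate 3, 7 without control replicate 2 and 6 with the 6 libraries alone, and the falls 3 without PCGF1 KO replicate 1. The most abundant of the largest rises was ONECUT2, at 68.6, 101.01 and 100.7 CPM in the PCGF1 KO libraries and 40.1, 43.6 and 45.6 CPM in control libraries (1.07 ± 0.13 SE, adjusted p = 2.31e-07). HMX2 (1.35 ± 0.24 SE), SHOX2 (0.99 ± 0.17 SE) and WT1 (0.68 ± 0.18 SE) were also higher, as were ISL2 and NKX3-2 from under 3 CPM in control. LYL1, a factor of blood stem cells, was lower (-0.40 ± 0.11 SE, adjusted p = 0.00865).

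Stem and progenitor genes did not move together. Of 9 tested, SOX4, MEIS1 and FLT3 were higher and BEX1 and BEX3 lower, against 9.31% and 6.97% of all genes. BEX1, an adaptor related to nerve growth factor signalling, was measured at 172, 178 and 149 CPM in the PCGF1 KO libraries and 564, 582 and 560.3 CPM in control libraries (log2 fold change -1.77 ± 0.09 SE, adjusted p = 2.42e-16), and BEX3 had -1.005 ± 0.14 (SE, adjusted p = 3.64e-06). Among 16 genes of the MLL and DOT1L complexes, 1 was higher, the elongation factor ELL2 at 7.07, 12.8 and 8.88 CPM in the PCGF1 KO libraries and 3.67, 3.18 and 3.11 CPM in control libraries (1.53 ± 0.26 SE, adjusted p = 6.57e-05), and 1 was lower, PSIP1, which tethers MLL to chromatin (-0.27 ± 0.09 SE, adjusted p = 0.0348), although PSIP1 stood at 0.06 when scaled by library size alone. These 2 calls among 16 genes are near the shares over all genes.

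Of the subunits of other PRC1 complexes tested, 20 in number, 4 were called higher and 0 lower by edgeR (2 at an unadjusted p under 0.05) (median 0.27). The shares over all genes were 9.31% and 6.97%. PHC2, a subunit of canonical PRC1, was measured at 9.15, 14.4 and 19.2 CPM in the PCGF1 KO libraries and 6.11, 7.10 and 6.45 CPM in control libraries (1.11 ± 0.24 SE, adjusted p = 0.00105). BMI1, the paralogue of PCGF1 also known as PCGF4, stood at 12.5, 16.96 and 15.2 CPM in the PCGF1 KO libraries and 7.54, 8.08 and 8.22 CPM in control libraries (0.91 ± 0.20 SE, adjusted p = 0.00117). CBX2, which binds trimethylated lysine 27 of histone H3, had 0.85 ± 0.21 (SE, adjusted p = 0.00500) and FBRSL1 0.75 ± 0.15 (SE, adjusted p = 0.000395). In none of the 4 did the groups overlap, as in 25.9% of all genes tested, and 4 to 6 members were called when a library was left out.

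Of 11 PRC2 genes, which encode the complex that methylates lysine 27 of histone H3, 2 were called higher and 1 lower. The shares over all genes were 9.31% and 6.97%. EZH1 fell, with 12.9, 11.49 and 7.48 CPM in the PCGF1 KO libraries and 18.5, 20.1 and 19.8 CPM in control libraries (-0.86 ± 0.17 SE, adjusted p = 0.000451), JARID2 rose (0.37 ± 0.08 SE, adjusted p = 0.00205) and EED rose (0.67 ± 0.21 SE, adjusted p = 0.0266), although EED lost its call in 4 of the 6 refits without a library. EZH2 had 0.29 ± 0.10 (SE, adjusted p = 0.0517) and SUZ12 -0.20 ± 0.09 (SE, adjusted p = 0.117). The 11 genes of the H2A deubiquitinases held 1 higher, FOXK1 (0.41 ± 0.14 SE, adjusted p = 0.0419), and 1 lower, ASXL2 (-0.41 ± 0.11 SE, adjusted p = 0.00602), a share near that over all genes.

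MHC class II genes, which present peptides to T cells, rose in the PCGF1 KO clone in DMSO. Of 13 genes listed 6 were tested, 5 were called higher and 0 lower (9.31% and 6.97% over all genes), and the median log2 fold change was 1.495. As a gene can pass the filter through its higher group, these shares describe the members that were expressed. No member was lower at an unadjusted p under 0.05 either. Their transcription depends on CIITA and on a promoter module whose Y box is read by NF-Y. The promoters of 3 of them are shown, as the 200 bases before the start of the canonical transcript (GRCh38), 5′ to 3′ on the gene's strand, because this module is what these genes are known to share. Capitals mark every CCAAT or its reverse complement ATTGG in the window, the sequence at the core of a Y box. Whether a match is the Y box of the module was not checked.
HLA-DMA, chr6:32953098-32953297, minus strand: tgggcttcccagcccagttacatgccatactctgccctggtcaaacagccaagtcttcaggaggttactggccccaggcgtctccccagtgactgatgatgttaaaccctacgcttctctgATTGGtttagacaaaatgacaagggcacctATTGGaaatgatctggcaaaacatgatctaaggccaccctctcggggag
HLA-DRB1, chr6:32589849-32590048, minus strand: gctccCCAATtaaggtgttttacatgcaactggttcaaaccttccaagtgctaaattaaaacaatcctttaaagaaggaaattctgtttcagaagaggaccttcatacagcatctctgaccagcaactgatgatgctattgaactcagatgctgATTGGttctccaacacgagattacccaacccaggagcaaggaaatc
CD74, chr5:150412911-150413110, minus strand: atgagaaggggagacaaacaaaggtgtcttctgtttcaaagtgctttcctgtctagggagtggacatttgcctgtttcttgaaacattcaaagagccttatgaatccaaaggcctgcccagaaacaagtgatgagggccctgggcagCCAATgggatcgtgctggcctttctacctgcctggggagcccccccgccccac
HLA-DRA, HLA-DMA and HLA-DRB1 held 2 matches each and CD74 held 1, while CIITA held none. The HLA-DPA1 window also held none, but it held 16 CpG against 1 to 3 in the others. Whether that window covers the promoter of HLA-DPA1 was not checked, so its lack of a match is not informative. Over all 10954 promoters of tested genes 31.3% held a match on either strand. Each of these genes lies outside the chromosome 5 stretch, CD74 on the same chromosome beyond it.

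HLA-DRA, the alpha chain of HLA-DR, was measured at 7.49, 10.8 and 12.4 CPM in the PCGF1 KO libraries and 2.04, 1.96 and 1.78 CPM in control libraries (log2 fold change 2.38 ± 0.26 SE, adjusted p = 3.35e-08). HLA-DRB1, a beta chain of HLA-DR, stood at 19.1, 15.5 and 14.7 CPM in the PCGF1 KO libraries and 4.07, 5.63 and 4.45 CPM in control libraries (1.81 ± 0.22 SE, adjusted p = 2.88e-07). CD74, the chaperone of class II molecules, was the most abundant, at 156, 126 and 141 CPM in the PCGF1 KO libraries and 67.2, 68.1 and 54.01 CPM in control libraries (1.16 ± 0.11 SE, adjusted p = 1.03e-09). In these 3 genes no PCGF1 KO library overlapped a control library, as in 25.9% of all genes tested. HLA-DRB1 has near-identical paralogues, and the gene counting of STAR keeps reads with a single place in the genome, so its level is uncertain.

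CIITA itself was low, at 4.37, 5.29 and 3.51 CPM in the PCGF1 KO libraries and 1.22, 3.43 and 1.33 CPM in control libraries, and its call (log2 fold change 1.18 ± 0.38 SE, adjusted p = 0.0288) was lost without PCGF1 KO replicate 2, without control replicate 1 or 3, and with only these 6 libraries in the model. HLA-DMA, which loads peptides, had 24 counts in PCGF1 KO and 1 in control, a ratio of 22.2-fold, with a 95% counting interval of 3.62 to 914. HLA-DPA1 was near the limit of detection and was not called (0.78 ± 0.76 SE).

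The difference depended on the drug. In SGC0946 HLA-DRA stood at 10.1, 12.9 and 12.5 CPM in the PCGF1 KO libraries and 12.8, 14.7 and 11.9 CPM in control libraries, and in VTP50469 at 52.3, 50.6 and 50.4 CPM in the PCGF1 KO libraries and 26.9, 20.01 and 24.5 CPM in control libraries. In both drugs the control libraries stood above those in DMSO, and in SGC0946 the groups overlapped. The change of the knockout effect from DMSO to SGC0946, tested as an interaction, was -2.54 ± 0.32 (SE, adjusted p = 2.39e-05) for HLA-DRA, -2.05 ± 0.29 (SE, adjusted p = 0.000134) for HLA-DRB1 and -4.46 ± 0.99 (SE, adjusted p = 0.0405) for HLA-DMA. HLA-DMA was near the limit of detection in the DMSO control, so the size of its change is uncertain. None of the 6 genes was called in SGC0946 by edgeR, nor did any reach an unadjusted p under 0.05, while 3 were called higher in VTP50469. In MOLM13 HLA-DRA (-3.23 ± 0.56 SE, adjusted p = 0.000118) and CD74 (-0.96 ± 0.08 SE, adjusted p = 5.19e-10) were lower in PCGF1 KO than in control, the direction opposite to that in MV4;11.

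**Figure D3:**
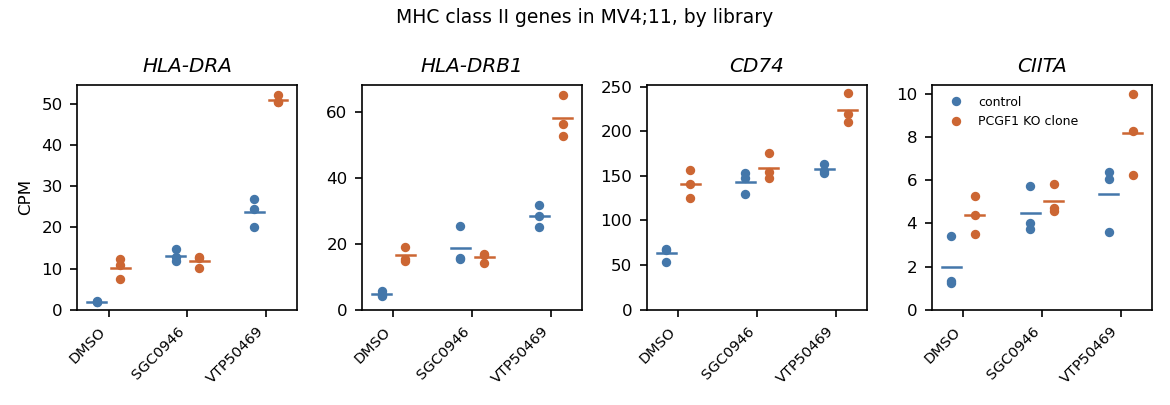
CPM of HLA-DRA, HLA-DRB1, CD74 and CIITA in each MV4;11 library, control in blue and the PCGF1 KO clone in orange, in DMSO, SGC0946 and VTP50469; points are libraries and bars are means. In DMSO the PCGF1 KO libraries lie above the control libraries, whereas in SGC0946 the groups overlap in HLA-DRA, HLA-DRB1, CD74 and CIITA.

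Most tested genes listed for primary (azurophil) granules, which promyelocytes make, were called lower in the PCGF1 KO clone, though not MPO, AZU1 or PRTN3. Of 11 tested, 7 were called lower and 0 higher by edgeR (0 at an unadjusted p under 0.05), with a median log2 fold change of -0.65. The shares over all genes were 6.97% and 9.31%. CTSG, which encodes cathepsin G, was measured at 93.0, 78.4 and 92.8 CPM in the PCGF1 KO libraries and 186, 219 and 213 CPM in control libraries (-1.23 ± 0.10 SE, adjusted p = 2.34e-11). The ribonuclease RNASE2 stood at 133, 141 and 135 CPM in the PCGF1 KO libraries and 240.0, 231 and 206 CPM in control libraries (-0.73 ± 0.11 SE, adjusted p = 5.80e-06), and the protease inhibitor SERPINB1 had -0.70 ± 0.12 (SE, adjusted p = 3.96e-05). The serine proteases ELANE (-0.57 ± 0.15 SE, adjusted p = 0.00615) and PRSS57 (-0.65 ± 0.14 SE, adjusted p = 0.00111), the cystatin CST7 (-0.90 ± 0.27 SE, adjusted p = 0.0191) and MS4A3 made up the rest. In ELANE, PCGF1 KO replicates 1 and 3 overlapped control replicate 1. The protease PRTN3 was not called, at 538, 302 and 550.4 CPM in the PCGF1 KO libraries and 292, 325 and 469.6 CPM in control libraries, nor were AZU1, MPO and RNASE3. In bulk samples, fewer cells of a type and less RNA per cell cannot be told apart. Leaving out a library gave 5 to 8 falls, and scaling by library size alone, which raises the median of all genes by 0.32, gave 2.

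Most markers of later stages and other lineages were at or near 0 in both groups. Of 16 secondary and tertiary granule genes 3 passed the filter. MMP25 was higher (0.94 ± 0.26 SE, adjusted p = 0.0105), SLPI had 3 counts in PCGF1 KO against 16 in control, and ORM1 had none against 16. Of 30 monocyte and macrophage genes 15 were tested, 4 higher and 3 lower, against 9.31% and 6.97% of all genes. The higher ones were S100A8, an alarmin of phagocytes, at 10.8, 9.30 and 13.3 CPM in the PCGF1 KO libraries and 5.70, 1.96 and 3.78 CPM in control libraries (1.49 ± 0.28 SE, adjusted p = 0.000212), the lipid receptor CD36 (1.14 ± 0.15 SE, adjusted p = 1.56e-06), the Fc receptor FCGR2A (1.09 ± 0.23 SE, adjusted p = 0.00104) and MS4A6A (0.87 ± 0.17 SE, adjusted p = 0.000386). CLEC12A, lysozyme (LYZ, -2.33 ± 0.65 SE, under 2 CPM in each library) and the Fc receptor FCGR1A (-1.30 ± 0.27 SE, adjusted p = 0.000663) were the lower ones.

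A single gene each of 21 erythroid genes (EPOR), 14 megakaryocyte genes (FLI1) and 12 mast cell, basophil and eosinophil genes (GATA2) passed the filter, with log2 fold changes of 0.11 ± 0.47 (SE), 0.02 ± 0.17 (SE) and 0.49 ± 0.29 (SE), none called. Of 27 lymphoid genes 5 were tested. IL7R was the member called higher. Levels of the myeloid genes listed differed widely. ELANE and PRTN3 stood at 199.6 CPM or more in every library, while most secondary and tertiary granule genes did not pass the filter.

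Regulators of the G1 phase were called higher in 6 of 13 and lower in 0 by edgeR (0 at an unadjusted p under 0.05), with a median of 0.29 (9.31% and 6.97% called over all genes). They include cyclins D2 and D3, which promote the cycle, and inhibitors that hold it back. Beside CCND2 and CDKN2C, CDKN2D was measured at 6.86, 18.4 and 23.4 CPM in the PCGF1 KO libraries and 7.13, 6.12 and 9.56 CPM in control libraries (1.08 ± 0.28 SE, adjusted p = 0.00668) and CDKN2A at 21.8, 47.8 and 64.7 CPM in the PCGF1 KO libraries and 31.8, 21.8 and 26.0 CPM in control libraries (0.74 ± 0.22 SE, adjusted p = 0.0212). In both of these PCGF1 KO replicate 1 lay within the control range. Both calls were lost without PCGF1 KO replicate 3 and with the 6 libraries alone, and CDKN2A lost its call in 6 of the 13 alternative fits. The G1 list held 4 to 5 rises when a library was left out and 2 with the 6 libraries alone. CCND3 had 0.38 ± 0.12 (SE, adjusted p = 0.0298) and CDK6 0.29 ± 0.09 (SE, adjusted p = 0.0175). Of 19 proliferation genes 1 was higher, MCM2 (0.65 ± 0.18 SE, adjusted p = 0.0100, groups overlapping), and 1 was lower, CCNA2 (-0.44 ± 0.12 SE, adjusted p = 0.00887), shares below those over all genes, although the falls ranged from 1 to 7 when a library was left out, the highest without PCGF1 KO replicate 1.

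Of 13 BCL2 family genes 7 were called higher and 1 lower (median 0.44), against 9.31% and 6.97% of all genes. The higher ones include genes that restrain apoptosis and genes that promote it. BCL2 stood at 111, 129.6 and 114 CPM in the PCGF1 KO libraries and 70.3, 81.3 and 74.5 CPM in control libraries, and MCL1, of the same role, had 0.44 ± 0.14 (SE, adjusted p = 0.0277). BCL2L11, which encodes the death-promoting BIM, was measured at 35.99, 35.6 and 40.4 CPM in the PCGF1 KO libraries and 19.4, 16.2 and 28.005 CPM in control libraries (0.81 ± 0.17 SE, adjusted p = 0.000748), and its relatives BMF (1.05 ± 0.25 SE, adjusted p = 0.00339), PMAIP1 (0.67 ± 0.15 SE, adjusted p = 0.00165), BIK (0.67 ± 0.15 SE, adjusted p = 0.00201) and BID (0.54 ± 0.16 SE, adjusted p = 0.0165) were higher too. BAK1, an effector of apoptosis, was lower (-0.84 ± 0.21 SE, adjusted p = 0.00507). Among 15 p53 targets 2 were higher, BTG2 (1.38 ± 0.45 SE, adjusted p = 0.0321) and TNFRSF10B (0.88 ± 0.30 SE, adjusted p = 0.0395), and 1 was lower, RPS27L (-0.39 ± 0.13 SE, adjusted p = 0.0388), each with overlapping groups. These counts are near the shares over all genes, and with the 6 libraries alone, or without PCGF1 KO replicate 3 or control replicate 2 or 3, none of the list was called. TNFRSF10B and RPS27L each lost the call in 7 of the 13 alternative fits, TNFRSF10B under the replicate block too, and BTG2 lost it in 4.

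Feedback genes of STAT5 and RAS signalling, which these pathways induce, were called higher in 6 of 16 and lower in 0 by edgeR (0 at an unadjusted p under 0.05, median 0.55). The shares over all genes were 9.31% and 6.97%. DUSP6, a phosphatase that limits ERK, was measured at 44.5, 59.1 and 92.1 CPM in the PCGF1 KO libraries and 23.4, 18.4 and 17.1 CPM in control libraries (1.72 ± 0.19 SE, adjusted p = 3.35e-08). The kinase PIM1 stood at 5.82, 10.4 and 23.6 CPM in the PCGF1 KO libraries and 3.26, 2.45 and 5.56 CPM in control libraries (1.78 ± 0.43 SE, adjusted p = 0.00323) and the cytokine signalling inhibitor SOCS3 at 0.416, 3.28 and 9.35 CPM in the PCGF1 KO libraries and 0.407, 0 and 1.11 CPM in control libraries (2.97 ± 0.74 SE, adjusted p = 0.00456). In these 3 genes the PCGF1 KO libraries spread widely, with replicate 3 highest, SOCS3 overlapped control, and the calls of PIM1 and SOCS3 were lost without replicate 3. CISH (0.56 ± 0.15 SE, adjusted p = 0.0105), PIM2 (0.54 ± 0.15 SE, adjusted p = 0.0144) and EGR1 (0.86 ± 0.25 SE, adjusted p = 0.0157) were the other genes called. Leaving out a library gave 1 to 7 calls of a rise, the lowest number without PCGF1 KO replicate 3. With the 6 libraries alone 2 were called. EGR1 lost its call in 5 of the 13 alternative fits, among them those without PCGF1 KO replicate 1 or 3.

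Cholesterol synthesis genes were called lower in 7 of 21 and higher in 0 by edgeR (0 at an unadjusted p under 0.05), with a median of -0.40. The shares over all genes were 6.97% and 9.31%. HMGCS1, which makes the precursor of mevalonate, was measured at 18.5, 19.7 and 29.0 CPM in the PCGF1 KO libraries and 57.9, 48.3 and 62.5 CPM in control libraries (-1.34 ± 0.15 SE, adjusted p = 2.83e-08), and it lies in the chromosome 5 stretch. SQLE, which oxidises squalene, stood at 68.4, 70.4 and 57.03 CPM in the PCGF1 KO libraries and 132, 112 and 137 CPM in control libraries (-0.96 ± 0.13 SE, adjusted p = 1.22e-06). DHCR7 (-1.01 ± 0.32 SE, adjusted p = 0.0259), MVK (-0.58 ± 0.18 SE, adjusted p = 0.0249), MVD (-0.54 ± 0.18 SE, adjusted p = 0.0379), NSDHL (-0.46 ± 0.12 SE, adjusted p = 0.00750) and FDFT1 (-0.41 ± 0.09 SE, adjusted p = 0.00120) were the others. In SGC0946 2 of the list were called lower and 2 higher, and in VTP50469 1 was lower and 0 higher. Without PCGF1 KO replicate 2 the list held 4 falls in DMSO. With only these 6 libraries in the model 3 were called lower, and scaling by library size alone gave 2 lower and 2 higher.

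Of 22 genes of the ATF4 response to amino acid shortage, 5 were lower and 2 higher (median -0.21, above 0 when scaled by library size alone). The shares over all genes were 6.97% and 9.31%. The falls numbered 2 without PCGF1 KO replicate 2, 3 without control replicate 2 and 1 with the 6 libraries alone. The rises numbered 4 without PCGF1 KO replicate 1 and 1 without PCGF1 KO replicate 3 or control replicate 2 or 3. SLC7A11, the cystine importer, was measured at 5.62, 6.38 and 4.21 CPM in the PCGF1 KO libraries and 22.6, 18.6 and 21.6 CPM in control libraries (-1.93 ± 0.19 SE, adjusted p = 2.51e-09). The asparagine synthetase ASNS (-0.51 ± 0.15 SE, adjusted p = 0.0169), TRIB3 (-0.90 ± 0.27 SE, adjusted p = 0.0187), ATF5 (-0.37 ± 0.10 SE, adjusted p = 0.0112) and ATF4 itself (-0.36 ± 0.11 SE, adjusted p = 0.0272) were also lower, while GPT2, a transaminase (0.53 ± 0.11 SE, adjusted p = 0.000526), and the lipoprotein receptor VLDLR (1.83 ± 0.64 SE, adjusted p = 0.0484) were higher. VLDLR lost its call in 6 and TRIB3 in 4 of the 13 alternative fits. In ATF4 PCGF1 KO replicate 1, at 332 CPM, lay within the control range of 311 to 373 CPM.

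The 16 interferon response genes tested split into 4 higher and 2 lower, against 9.31% and 6.97% of all genes. GBP2, a guanylate-binding protein, was measured at 37.03, 30.4 and 29.4 CPM in the PCGF1 KO libraries and 9.57, 8.82 and 6.45 CPM in control libraries (1.96 ± 0.18 SE, adjusted p = 5.18e-10), and IFITM2, which blocks virus entry, at 858, 819.6 and 748 CPM in the PCGF1 KO libraries and 421, 463 and 394 CPM in control libraries (0.92 ± 0.10 SE, adjusted p = 1.45e-08). USP18 (1.78 ± 0.44 SE, adjusted p = 0.00470) and IRF1 (0.36 ± 0.11 SE, adjusted p = 0.0218) were higher, and XAF1 was lower (-1.05 ± 0.12 SE, adjusted p = 7.23e-08). Among 15 integrins and adhesion molecules 5 were higher and 2 lower, against 9.31% and 6.97% of all genes. CD44, the hyaluronan receptor, was measured at 20.8, 20.6 and 23.8 CPM in the PCGF1 KO libraries and 6.72, 1.96 and 4.001 CPM in control libraries (2.31 ± 0.24 SE, adjusted p = 1.26e-08), and the leukocyte integrin ITGB2 at 105, 206 and 217 CPM in the PCGF1 KO libraries and 95.9, 59.8 and 81.3 CPM in control libraries (1.15 ± 0.18 SE, adjusted p = 2.15e-05). ITGB7 (0.77 ± 0.15 SE), ITGB1 (0.63 ± 0.12 SE) and CD99 (0.45 ± 0.12 SE) also rose, and the selectin ligand SELPLG (-0.86 ± 0.16 SE, adjusted p = 0.000154) and CD47 (-0.54 ± 0.13 SE) fell. Of 24 germline genes 6 were tested, and MAGEA4 and MAGEB2 (0.77 ± 0.27 SE, adjusted p = 0.0432) were higher, the latter a call lost in 8 of the 13 alternative fits.

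The same clone and control cells under drug gave libraries that share none with the DMSO comparison, so they show how far the differences recur, although not across clones. In SGC0946, where 18.4% of genes were called (9.36% higher and 9.06% lower), 591 of the 1047 genes higher in DMSO (56.4%) were higher again and 1 was lower, and they made up 56.1% of the genes higher in SGC0946. Of the 784 lower genes 469 (59.8%) were lower again and 1 was higher, which is 46% of the lower genes in SGC0946. In VTP50469, where 8.49% were called (4.12% higher and 4.36% lower), 269 (25.7%) of the higher and 248 (31.6%) of the lower genes recurred, 58% and 50.5% of the VTP50469 lists, with 8 and 4 in the opposite direction. Across the 11252 genes the log2 fold changes correlated with those in DMSO at a Pearson r of 0.693 for SGC0946 and 0.546 for VTP50469, a description across genes that share the clone, the control line and the counting. The median log2 fold change of the genes higher in DMSO was 0.93 there, 0.63 in SGC0946 and 0.34 in VTP50469. These genes were chosen by their call in the same DMSO libraries, so a smaller median elsewhere follows in part from that choice.

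Tested as an interaction, the knockout effect in SGC0946 differed from that in DMSO for 27 of 11252 genes, and in VTP50469 for 215. EPB41L2 was higher in each setting, at 40.6, 43.3 and 50.9 CPM in the PCGF1 KO libraries and 0.449, 0.834 and 0 CPM in control libraries in VTP50469. TCF4 stood at 46.3, 44.2 and 44.7 CPM in the PCGF1 KO libraries and 32.8, 36.4 and 42.1 CPM in control libraries in VTP50469, where its rise was not called (0.28 ± 0.12 SE, adjusted p = 0.160), a change from DMSO of -2.92 ± 0.17 (SE, adjusted p = 9.21e-14). For UGCG the change was -2.80 ± 0.21 (SE, adjusted p = 8.40e-11), and for SOX4 -1.69 ± 0.12 (SE, adjusted p = 6.06e-11). MNDA stayed lower in VTP50469 (-2.31 ± 0.19 SE, adjusted p = 1.17e-10), by less than in DMSO (change 3.13 ± 0.42 SE, adjusted p = 2.42e-05). The VTP50469 libraries were taken at 48 h and the DMSO libraries are labelled 72 h, so drug and time cannot be told apart in these differences.

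MOLM13 is a separate line whose PCGF1 KO columns name another guide, and its table was fitted on its own. There 13.8% of 12140 genes were called. Of 957 genes higher in MV4;11 and tested in MOLM13, 241 (25.2%, or 32.5% of the MOLM13 list) were called higher and 66 (6.9%) lower. Of 757 genes lower in MV4;11, 96 (12.7%, or 16.8% of the MOLM13 list) were lower and 53 (7.0%) higher. Over MOLM13 as a whole 8.33% of genes were called higher and 5.43% lower. Across 10354 genes the Pearson r of the log2 fold changes was 0.225.

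Genes with a symbol called the same way in MV4;11 in DMSO, SGC0946 and VTP50469 and in MOLM13 numbered 81 higher and 44 lower. CCND2 was among the former, and in MOLM13 it stood at 190.5, 208 and 199 CPM in MOLM13 PCGF1 KO and 23.2, 22.4 and 28.7 CPM in MOLM13 control (log2 fold change 3.002 ± 0.09 SE, adjusted p = 2.39e-19). TIAM1, an exchange factor for RAC, was measured at 7.49, 11.1 and 7.71 CPM in the PCGF1 KO libraries and 0.204, 0.490 and 0.667 CPM in control libraries in MV4;11 (4.23 ± 0.42 SE, adjusted p = 4.60e-09) and had 6.47 ± 0.64 (SE, adjusted p = 2.91e-08) in MOLM13. EPB41L2 (1.43 ± 0.09 SE), PMEPA1 (3.58 ± 0.37 SE), the receptor GPR153 (3.53 ± 0.39 SE in MV4;11 and 1.67 ± 0.41 SE in MOLM13) and KLHL23 (3.40 ± 0.52 SE and 1.75 ± 0.16 SE) were the other large rises. STK39, a kinase that controls ion transporters, was lower in both lines (-2.02 ± 0.29 SE in MV4;11 and -2.12 ± 0.24 SE in MOLM13), as were CLEC12A (-2.40 ± 0.40 SE in MOLM13), ACVRL1, a receptor of the BMP family (-1.99 ± 0.42 SE and -1.67 ± 0.37 SE), TDRD7 (-2.20 ± 0.34 SE and -0.85 ± 0.28 SE), LINC00926 and BASP1 (-0.48 ± 0.10 SE in MOLM13).

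**Figure D4:**
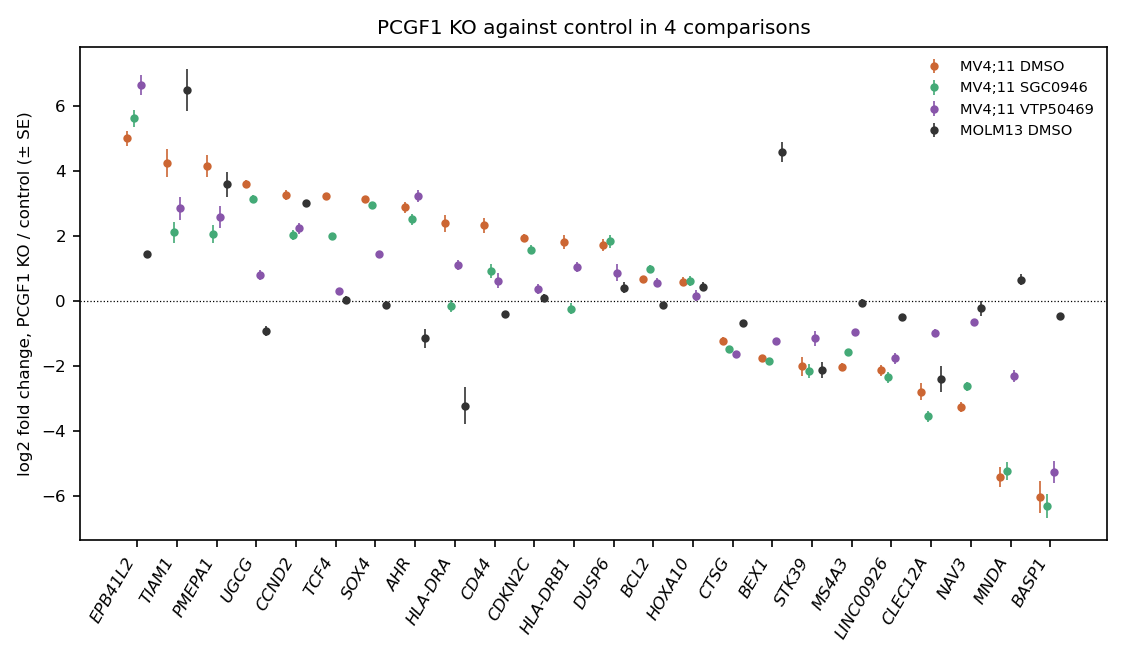
Log2 fold change of PCGF1 KO over control (points, with SE as bars) for 24 genes described in the text in MV4;11 in DMSO, SGC0946 and VTP50469 and in MOLM13 in DMSO. CCND2 and EPB41L2 are above 0 in each of the 4 comparisons, whereas BEX1 is at -1.77 in MV4;11 in DMSO and at 4.58 in MOLM13.

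Other genes were called in opposite directions in the 2 lines. BEX1 stood at 17.4, 19.9 and 28.1 CPM in MOLM13 PCGF1 KO and 0.531, 1.201 and 0.978 CPM in MOLM13 control (4.58 ± 0.31 SE, adjusted p = 6.38e-12), against its fall in MV4;11. AHR, the aryl hydrocarbon receptor, was measured at 99.4, 64.2 and 68.5 CPM in the PCGF1 KO libraries and 8.96, 12.2 and 10.7 CPM in control libraries in MV4;11 (2.87 ± 0.18 SE, adjusted p = 1.00e-13) and had -1.16 ± 0.31 (SE, adjusted p = 0.00941) in MOLM13. The chloride transporter CLCN4 (2.67 ± 0.40 SE in MV4;11 and -2.23 ± 0.34 SE in MOLM13), UGCG (-0.93 ± 0.15 SE in MOLM13) and CD44 (-0.41 ± 0.09 SE in MOLM13) were likewise higher in MV4;11 and lower in MOLM13. TREM2, a receptor of macrophages, was lower in MV4;11, at 1.87, 2.01 and 0.234 CPM in the PCGF1 KO libraries and 8.76, 5.39 and 8.45 CPM in control libraries, and higher in MOLM13 (1.14 ± 0.15 SE, adjusted p = 3.17e-06), as were MNDA (0.64 ± 0.17 SE in MOLM13) and SQOR (-1.49 ± 0.20 SE and 0.27 ± 0.09 SE). SOX4, the gene with the highest level among the large rises in MV4;11, had -0.15 ± 0.12 (SE, adjusted p = 0.509) in MOLM13, and TCF4 had 0.02 ± 0.12 (SE, adjusted p = 0.939).

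KDM2B brings PRC1.1 to CpG-rich DNA, so the CpG count of the 200 bases before the start of the canonical transcript was set beside the calls, with no test. The median was 18 over 10954 promoters, 20 in 1034 genes called higher and 19 in 762 called lower. Promoters with at least 10 CpG made up 83.0% of all, 80.8% of the higher and 82.5% of the lower genes. Among genes lower by more than 1 on the log2 scale the share was 62.6%, and among those higher by more than 1 it was 75.4%. Of the 47 genes with at most 3 counts in control that were called higher and had a promoter here, 53.2% reached 10 CpG. In the reverse set, 14 genes called lower with at most 3 counts in PCGF1 KO, the share was 42.9%. Promoters with many and with few CpG stood among the largest changes, as a pair of rises and a fall show, with CG in capitals and coordinates of GRCh38.
EPB41L2, chr6:131063246-131063445, minus strand: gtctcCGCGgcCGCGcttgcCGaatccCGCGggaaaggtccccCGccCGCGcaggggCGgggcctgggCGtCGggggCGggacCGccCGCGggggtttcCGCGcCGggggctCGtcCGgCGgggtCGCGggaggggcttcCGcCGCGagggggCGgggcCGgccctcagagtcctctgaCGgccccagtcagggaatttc
PRL, chr6:22297037-22297236, minus strand: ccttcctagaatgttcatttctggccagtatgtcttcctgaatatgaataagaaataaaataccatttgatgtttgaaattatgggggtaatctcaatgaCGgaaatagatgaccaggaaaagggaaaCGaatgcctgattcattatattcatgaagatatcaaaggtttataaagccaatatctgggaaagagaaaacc
MNDA, chr1:158831151-158831350, plus strand: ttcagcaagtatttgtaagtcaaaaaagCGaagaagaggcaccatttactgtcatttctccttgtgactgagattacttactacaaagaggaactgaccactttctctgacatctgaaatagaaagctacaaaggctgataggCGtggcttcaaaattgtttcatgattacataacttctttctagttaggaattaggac
EPB41L2, which rose, held 31 CpG and PRL, which also rose, held 2. MNDA, which fell, held 2. These 3 were chosen after their values were seen.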

How the data were processed

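The samples were MV4;11 and MOLM13 cells, with PCGF1 KO and control libraries in 3 replicates each. According to the methods and labels, the authors made 3′ RNA-seq libraries, trimmed reads, aligned them with STAR to GRCh38 (hg38) and deposited raw whole-number counts of reads per gene, 1 column for each replicate. Reads were counted by STAR's GeneCounts mode, which keeps uniquely mapped reads. Its strand setting is not given in the sources used here, so reads of overlapping and antisense genes may not be told apart. Of the per-sample columns, 30 of the 48 in the MV4;11 table were not used, since they name other clones, pools or controls. The labels name PCGF1 KO without a clone, and its samples were matched to the clone's columns because these are the PCGF1 columns with the 3 treatments. Lines that name no gene held 21.4% to 28.4% of the DMSO libraries' reads and were left out.

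Counts were tested in R 4.3.3 with edgeR 4.0.16 (quasi-likelihood test, TMM scaling, Benjamini-Hochberg adjustment) in 1 model of 18 MV4;11 libraries and 6 groups, which share the estimate of spread; MOLM13 was fitted on its own with 27 libraries. A gene was kept where 2 or more libraries reached 2 CPM, which left 11252 in MV4;11, and identifiers were matched to GENCODE for 97.6% of them. The test was checked on simulated data. DESeq2 1.42.0 was an alternative, along with other scalings, no filter, the 6 libraries alone, a replicate block and leaving out each library. Same-numbered DMSO libraries of MV4;11 did not deviate together (r of -0.164, -0.122 and 0.148), so the numbers were not taken as pairs.

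Genes were named by a rule: PRC1.1 subunits, genes the study names for these lines, the 12 largest called rises and falls at 10 CPM or more without overlap, silent genes that were called (8 each way), up to 4 called members of each list, and genes called alike in the 4 comparisons or oppositely in MOLM13. Other members named to complete a list were added after their values were seen. The comparison, the gene lists and the rule were chosen with earlier results of these data known. Lists were described by counts and medians, with no set test. Folds against a group without counts use 3 counts per library; ratios with 1 to 3 counts carry exact (Clopper-Pearson) intervals that cover counting error only. Promoters were read from GRCh38 by GENCODE starts. Some called list members and promoters are not reported here.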

Additional observations from a re-analysis of the deposited data

Results flagged for a closer look

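The effect of PCGF1 KO on some of the genes named above differed between treatments by the interaction test in the same edgeR model (adjusted p under 0.05 over 11252 genes). The value is the log2 fold change of PCGF1 KO over control under the drug minus that in DMSO. For SGC0946 it was -1.23 in CCND2, 1.85 in EGR1, 1.52 in GPT2, -4.46 in HLA-DMA, -2.54 in HLA-DRA, -2.05 in HLA-DRB1, -1.22 in TCF4. In EGR1 the mean level of the knockout was 14.7 CPM in DMSO and 14.6 CPM in SGC0946, and that of control 8.10 and 2.21 CPM. In GPT2 the knockout stood at 152 and 170.3 CPM and control at 105 and 41.4 CPM. In the others the difference between knockout and control was smaller under the drug or, in the HLA genes, was no longer called.

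For VTP50469 the change was negative in 18 named genes, each of them higher in PCGF1 KO in DMSO. The immune and lineage genes among them were CD44 (-1.70), HLA-DMA (-3.93), HLA-DRA (-1.29), IFITM2 (-0.71), ITGB7 (-1), RUNX2 (-1.41), SOX4 (-1.69), TCF4 (-2.92). The others were ARHGEF12 (-1.76), BMF (-1.72), CCND2 (-1.02), CDKN2C (-1.58), CLCN4 (-2.73), DTX4 (-1.61), ELL2 (-1.75), JARID2 (-0.49), PTK2 (-2.57), UGCG (-2.80). It was positive in 14 named genes, each lower in PCGF1 KO in DMSO, namely BEX1 (0.52), CCNA2 (0.67), CLEC12A (1.81), CORO2A (1.87), MCTP1 (1.34), MNDA (3.13), MS4A3 (1.07), NAV3 (2.60), PSIP1 (0.57), SQLE (0.79), SQOR (1.15), TRERF1 (1.57), VIT (3.14), XAF1 (0.80). These sets share the DMSO libraries with the comparison by which most of the genes were named, so a smaller difference under drug is not independent of that choice.

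Genes called in opposite directions in MV4;11 and MOLM13 are given with both log2 fold changes, MV4;11 first. They were AHR (2.87 and -1.16), CLCN4 (2.67 and -2.23), CD44 (2.31 and -0.41), UGCG (3.59 and -0.93) among the genes higher in MV4;11, and BEX1 (-1.77 and 4.58), MNDA (-5.44 and 0.64), SQOR (-1.49 and 0.27), TREM2 (-2.38 and 1.14) among those lower. The difference between the lines was not tested, since the tables were fitted separately.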

How the results depend on the processing

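Without PCGF1 KO DMSO replicate 1 the DMSO comparison gave 2824 calls and without control replicate 2 it gave 1188, the ends of the range over the 6 refits without a library. The same refits gave 84 to 146 list members called (119 with all libraries), a chromosome 5 median of -1.053 to -0.928 and 79.5% to 83.4% of higher genes with 10 or more CpG. The ranges were 1488 to 1617 calls in SGC0946, 646 to 820 in VTP50469 and 1264 to 1747 in MOLM13. Scaling by library size alone gave 2848 calls in DMSO (2618 higher, 91.9% of calls against 57.2%) and 1881 in VTP50469 (1698 higher and 183 lower), a chromosome 5 median of -0.67 and 85.9% of higher genes with 10 or more CpG. It turned PSIP1 to 0.063, the median of the interferon list to 0.196 and that of the ATF4 list to 0.121, while the median of all genes moved to 0.324. With only the 6 libraries compared in the model there were 885 calls in DMSO, 3288 in SGC0946 and 725 in MOLM13, 64 list members called and 78.1% with 10 or more CpG; the fewer libraries change the estimate of spread. DESeq2's Wald test called 1555 genes in DMSO, limits of an adjusted p under 0.1 and a log2 fold change over 0.5 in size called 1664 and the counts without the 2 most abundant identifiers 1782, and leaving out the chromosome 5 stretch, an alternative chosen after seeing the data like the one before it, left 1752. Of the 140 genes named by rule, 109 kept their side of the threshold with the 6 libraries alone and 115 to 136 without a library. The causes of these shifts were not tested. Same-numbered libraries were not paired in the labels. In the MV4;11 comparisons the knockout libraries did not each correlate best with the control library of their own number, while in MOLM13 they did, at 0.043, 0.082 and 0.059, which is a hint from the data and not from the design. With the replicate number as a block there were 1791 calls in DMSO, 2032 in SGC0946, 925 in VTP50469 and 1994 in MOLM13, and 138 of the 140 named genes kept their side of the threshold. Depth limits genes near 3 counts a library.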

Other observations

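Because TCF4, the E protein known to direct plasmacytoid dendritic cell fate, and UGCG were among the largest rises, a list of 24 genes known from plasmacytoid dendritic cells was put together after these values were seen. The list is therefore a description and carries no test. Of 14 members that passed the filter, 10 were called higher and 0 lower in the PCGF1 KO clone in DMSO. Their median log2 fold change was 0.62, against 9.31% and 6.97% called and a median of 0.00 over all genes. TCF4 and UGCG, which prompted the list, are among the 10, so this share was in part set by that choice. A member can also pass the filter through its higher group. In MOLM13, of 13 members tested 2 were called higher and 2 lower, with a median of 0.02. Beside TCF4, UGCG and LAMP5, the receptor IL3RA was measured at 30.4, 30.3 and 26.2 CPM in the PCGF1 KO libraries and 20.6, 18.4 and 22.2 CPM in control libraries (log2 fold change 0.51 ± 0.14 SE, adjusted p = 0.0110 by edgeR), and the transcription factor IRF8 at 48.1, 41.4 and 64.7 CPM in the PCGF1 KO libraries and 26.5, 28.4 and 37.1 CPM in control libraries (0.74 ± 0.15 SE, adjusted p = 0.000557). BCL11A, a transcription factor that this cell type needs, stood at 83.8, 80.2 and 72.7 CPM in the PCGF1 KO libraries and 58.9, 66.4 and 54.7 CPM in control libraries (0.40 ± 0.10 SE, adjusted p = 0.00723), and SPIB at 22.05, 22.6 and 21.97 CPM in the PCGF1 KO libraries and 2.04, 4.65 and 2.44 CPM in control libraries (2.89 ± 0.23 SE, adjusted p = 5.79e-11). The others were NRP1 (0.89 ± 0.13 SE), ITM2C (2.58 ± 0.30 SE) and CCDC50, which had 11 counts in PCGF1 KO and none in control. The 10 members that did not pass the filter were too low to test in either group.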
